A study of Sus scrofa with 18 samples.

Results

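The solute carriers (SLC) are a large superfamily of membrane proteins that move sugars, amino acids, metals, vitamins and other small molecules across cell and organelle membranes. All 176 probe sets of the porcine GeneChip whose only annotated gene symbol begins with SLC and a number were taken, out of 24123 probe sets in all, and they stand for 120 of the 6765 genes with such a probe set. The 3 symbols SLC2A4RG, SLC9A3R1 and SLC9A3R2 fit that rule but name a regulator and 2 scaffold proteins, not carriers, and 5 further SLC probe sets carry several symbols and were left out. Of the 176, 89 probe sets of 73 genes exceeded an intensity of 100 on 3 or more of the 18 arrays. Of all 23999 probe sets other than array controls, 10278 did so.

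The arrays measured endometrium of pregnant Meishan and Yorkshire gilts on gestational days (GD) 15, 26 and 50, with 3 arrays in each of the 6 groups M15, M26, M50, Y15, Y26 and Y50. Gilts of both breeds had been mated to boars of their own breed. Each array held pooled RNA of 1 conceptus attachment site from each of 2 gilts, and a group's 3 arrays are 3 such sites of its only 2 gilts. The p-values therefore measure the spread between site pools, and not the spread between animals.

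In the pig the placenta does not invade the uterus, so nutrients for the conceptus pass across the uterine epithelium and the trophoblast epithelium that lies against it. Carriers of both cell layers are needed for glucose, amino acids, iron, zinc, copper and vitamins. Fructose is an abundant sugar of fetal fluids in the pig.

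Values are log2 intensities, on which an intensity of 100 is 6.64, and the level of one probe set cannot be set against that of another. Of the 176 SLC probe sets, 38 were above 100 on all 18 arrays, 77 on none, 10 on 1 or 2 arrays and 8 on 3 to 5 arrays. The 81 probe sets of 69 genes that exceeded 100 on at least 6 arrays were tested with all 9320 probe sets that did so. A probe set rose or fell, or was higher in a breed, where its limma adjusted p was at most 0.05 and its change at least 2-fold. Where a fold is given as "at least", the p beside it is that of the fitted change and not of that bound.

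The genes that reached an intensity of 100 in 3 arrays, 73 of 120 over the family, were counted by class, and the classes were not compared by a test. Among the sugar carriers 10 of 15 genes did so, among the amino acid and peptide carriers 14 of 20, among the metal carriers 10 of 14, and among the vitamin and choline carriers 5 of 9. The sugar carriers below that level included SLC2A2 and SLC2A4, the glucose carriers known from liver and from muscle and fat. The folate carrier SLC46A1 and the vitamin C carriers SLC23A1 and SLC23A2 were also below it. Of the 13 genes of ion carriers 3 reached it, and of the 8 genes of organic acid, drug and bile acid carriers 1 did. Mitochondrial carriers were above 100 in 3 arrays for 14 of 20 genes and nucleotide sugar carriers for 9 of 10.

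The 6 arrays of Y26 and Y50 stood apart from the other 12. Their spiked control probe sets averaged 11.7 to 13.7 against 9.997 to 11.3 on the other arrays, and the median of the probe sets tested was 7.78 to 8.13 against 8.31 to 8.40. The median change of all probe sets tested from Y15 to Y26 was −0.47, against −0.06 in Meishan, and the median difference between the breeds was −0.42 on GD26 and −0.46 on GD50. In addition, 6 SLC probe sets exceeded 100 on at least 3 of these arrays and on none of the other 12, which is 3.41% of the family against 1.31% of all probe sets. In reverse, 8 SLC probe sets exceeded 100 on at least 3 of the other 12 arrays and on none of these 6, 4.55% against 5.8% of all probe sets. The 2 groups of later Yorkshire tissue and these array properties cannot be told apart. Setting the medians of all arrays equal (centring) ended 23 calls of named genes, which is said beside those that are given below. Within Y26 the spiked controls averaged 13.05 and 13.13 on arrays 2 and 3 against 11.7 on array 1, and when Y26 was taken from array 1 alone 18 calls of named genes were lost and 64 kept. That fit takes the spread of the single array from the other groups, and some calls were lost with a larger fold. The breed difference of SLC28A3 on GD26 was −1.24 log2 with all arrays, −1.34 from array 1 and −0.88 after centring. Of the 6 endometrial markers on the array, ACP5, SPP1, FOXA2 and MSX1 were above 100 on all 18 arrays, whereas PGR and ESR1 were under 100 on all of them.

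From GD15 to GD26, 25 SLC probe sets rose and 15 fell in Meishan, 49.4% of those tested, against 24% of all probe sets. In Yorkshire 28 rose and 20 fell, 59.3% against 45.4% of all probe sets. By direction, 12.3% of all probe sets rose and 11.7% fell in Meishan, and 14.5% rose and 30.9% fell in Yorkshire. After centring, 31 SLC probe sets rose and 15 fell in Yorkshire. In both breeds 24 SLC probe sets rose, 29.6% of the 81, against 8.55% of all probe sets. They were 96% of the Meishan and 85.7% of the Yorkshire SLC risers, while over all probe sets the shared risers were 69.6% and 59% of the Meishan and Yorkshire lists. In both breeds 11 SLC probe sets fell, 13.6% of the 81, against 9.87% of all probe sets. They were 73.3% of the Meishan and 55% of the Yorkshire ones, against 84.5% and 32% over all probe sets. None of the 81 moved in opposite directions, against 0.397% of all probe sets.

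**Figure D1:**
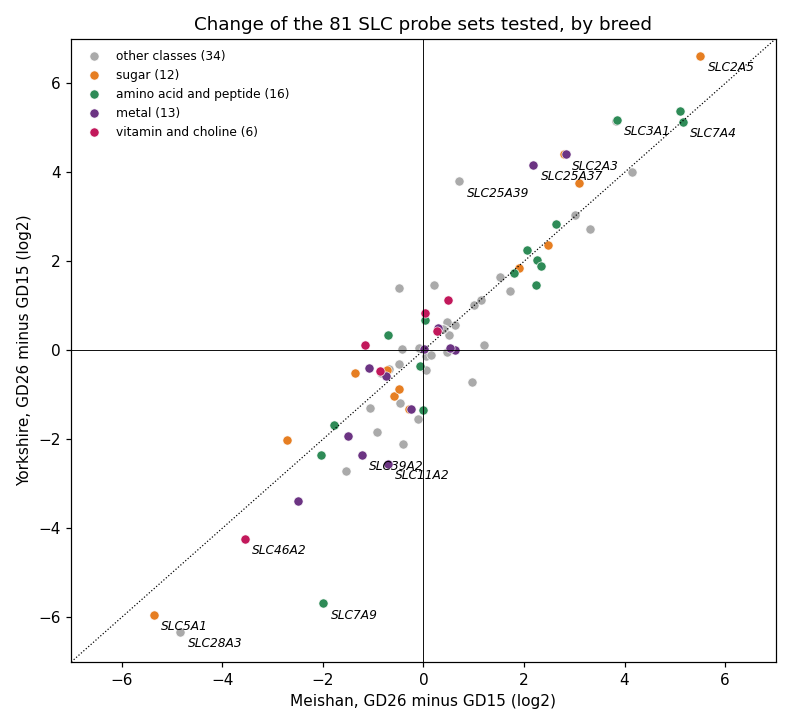
Change from GD15 to GD26 in Meishan (horizontal, log2) and Yorkshire (vertical, log2) of the 81 SLC probe sets tested, coloured by carrier class, with the number of probe sets of each class in the key and a dotted line of equal change. SLC2A5 lies at the upper right and SLC5A1 and SLC28A3 at the lower left, while SLC7A9 (−1.99 against −5.69) and SLC25A39 (0.71 against 3.80) lie away from the line.

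From GD26 to GD50 fewer carriers changed. In Meishan 4 SLC probe sets rose and 4 fell, 9.88% against 7.39% of all probe sets, of which 3.39% rose and 4% fell. In Yorkshire 8 rose and 3 fell, 13.6% against 8.45% of all probe sets, of which 3.37% rose and 5.09% fell. The only SLC probe set that rose at this step in both breeds was that of SLC2A5, and none fell in both, where 1.35% and 1.56% of all probe sets did so. In none of the 4 comparisons between days were 25 of the 81 SLC probe sets called, 30.9% of them, against 46.2% of all probe sets.

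**Figure D2:**
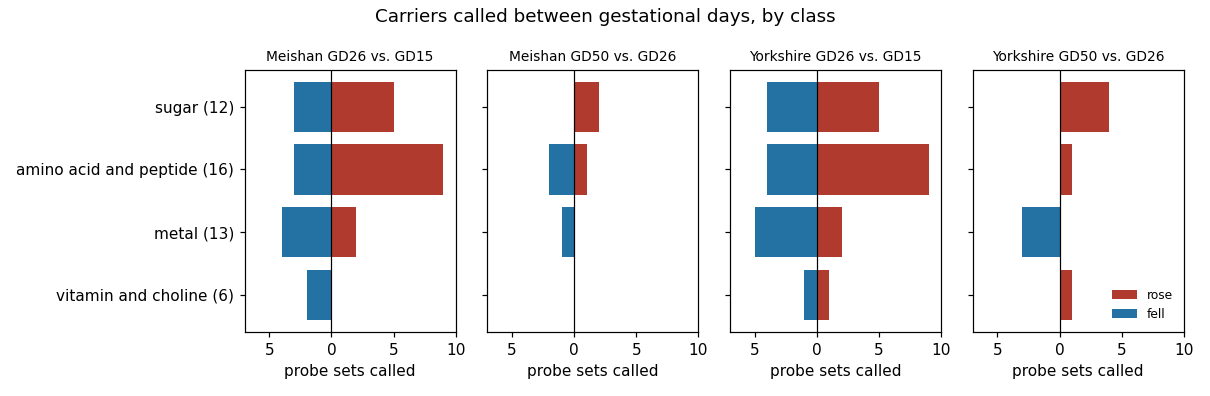
Number of probe sets that rose (bars to the right) or fell (bars to the left) between gestational days in each breed, for the 4 nutrient classes, with the number tested in brackets. Amino acid and peptide carriers had the most risers by GD26, 9 of 16 in each breed, and metal carriers had 4 and 5 fallers of 13.

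Markers of trophoblast, the outer cells of the conceptus, moved with these changes. Of 10 such markers on the array 8 passed the filter, and 6 rose and none fell by GD26 in each breed. Their summed intensity was 313 to 450 on the GD15 arrays and 41036 to 97480 on the GD26 and GD50 arrays. In M26 the sum was lowest on array 3, at 41036 against 75931 and 67048, and on the same array 20 of the 25 SLC probe sets that rose in Meishan had their lowest M26 value. The 28 Yorkshire risers were lowest on Y26 arrays 1, 2 and 3 in 8, 10 and 10 cases. The same share over all probe sets that rose was not counted, so these counts cannot be called particular to the carriers. The part of conceptus tissue in the rises below was not tested, and in such tissue samples fewer cells of a type and less RNA per cell cannot be told apart. Markers of smooth muscle moved in the same step. Of the 5 that passed the filter 3 rose in Meishan and 4 in Yorkshire by GD26 and none fell, and their sum went from 7734 to 8917 in M15 to 16186 to 18057 in M26, and from 5361 to 6793 in Y15 to 12219 to 13894 in Y26. On GD50 it was 9114 to 12640. Stromal markers summed to 29667 to 38075 on GD15 and 43191 to 56194 later, but the sum does not stand for the whole list. Of the 6 that passed the filter 1 rose in Meishan and 2 in Yorkshire by GD26, and none fell. THY1 averaged 9.19 in M15 and 13.93 in M26, and 10.36 in Y15 and 13.74 in Y26. Epithelial markers summed to 39607 to 42481 in M15, 35419 to 39239 in M26 and 32767 to 35171 in M50. In Yorkshire they summed to 36771 to 41122 in Y15, 31454 to 32294 in Y26 and 27913 to 35218 in Y50. Of the 11 that passed the filter 1 rose and 1 fell in Meishan by GD26, and 1 rose and 3 fell in Yorkshire. The part of these cells was not tested either.

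Of the 12 probe sets of sugar carriers, 5 rose and 3 fell by GD26 in Meishan, with a median change of −0.38, and 5 rose and 4 fell in Yorkshire, with a median of −0.47, or −0.08 after centring. That is 66.7% called in Meishan and 75% in Yorkshire, against 24% and 45.4% of all probe sets. From GD26 to GD50, 2 rose in Meishan and 4 in Yorkshire, and none fell. These include SLC2A5 in both breeds and both SLC45A3 probe sets in Yorkshire, which had already risen by GD26. The fructose carrier SLC2A5 had the largest rise of the class. It read 2.94, 2.88 and 2.67 on GD15, 8.64, 8.64 and 7.7 on GD26 and 12.45, 12.37 and 12.43 on GD50 in Meishan, and 2.67, 2.94 and 3.12 on GD15, 10.10, 9.25 and 9.24 on GD26 and 13.18, 12.66 and 12.78 on GD50 in Yorkshire. All 6 GD15 arrays were far under intensity 100, and each later group lay above the one before it without overlap. Against the limit of 100, the rise to GD26 was at least 3.21-fold in Meishan and at least 7.40-fold in Yorkshire (adjusted p = 1.24e-07 and 8.81e-08). From GD26 to GD50 it rose further, by 4.09 ± 0.235 log2 (adjusted p = 7.28e-06) in Meishan and 3.34 ± 0.266 log2 (adjusted p = 8.98e-05) in Yorkshire. On GD26 it was higher in Yorkshire by 1.2 ± 0.261 log2 (adjusted p = 0.00137), and this was under 2-fold without Meishan GD26 array 3 (0.89) or Yorkshire GD26 array 1 (0.92). The rise by GD26 was larger in Yorkshire by 1.13 ± 0.369 log2 as fitted (adjusted p = 0.0273), a call that ended without Meishan GD15 array 1 (1.07), Meishan GD15 array 2 (1.1), Meishan GD26 array 3 (0.81), Yorkshire GD15 array 1 (1.01) or Yorkshire GD26 array 1 (0.84).

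The facilitative glucose carriers SLC2A3 (GLUT3) and SLC2A12 (GLUT12) rose once and stayed high. SLC2A3 read 7.88, 8.23 and 8.14 on GD15, 11.31, 10.87 and 10.45 on GD26 and 11.53, 11.87 and 11.50 on GD50 in Meishan, and 6.88, 6.91 and 7.27 on GD15, 11.49, 11.42 and 11.37 on GD26 and 11.98, 11.65 and 11.95 on GD50 in Yorkshire. Its GD15 values were lower in all 3 Yorkshire than in all 3 Meishan arrays, and the Yorkshire GD26 values were the higher ones. It rose by 2.8 ± 0.219 log2 (adjusted p = 7.56e-06) in Meishan and 4.41 ± 0.175 log2 (adjusted p = 8.3e-08) in Yorkshire, and the Yorkshire rise was larger by 1.61 ± 0.283 log2 (adjusted p = 0.000626). SLC2A12 read 7.09, 7.03 and 6.81 on GD15, 10.47, 10.35 and 9.37 on GD26 and 10.82, 11.05 and 10.66 on GD50 in Meishan, and 7.16, 7.05 and 7.21 on GD15, 11.06, 10.70 and 10.93 on GD26 and 11.44, 10.77 and 11.13 on GD50 in Yorkshire. The GD15 values of both breeds lay together and under all later ones, with rises of 3.09 ± 0.264 and 3.76 ± 0.200 log2. Neither gene was called from GD26 to GD50.

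SLC45A3, a member of a proton-coupled sugar carrier family, rose by GD26 on both of its probe sets in both breeds. Its brighter probe set read 6.14, 5.96 and 5.93 on GD15, 7.65, 8.04 and 8.02 on GD26 and 7.96, 7.78 and 8.27 on GD50 in Meishan, and 5.29, 5.89 and 5.85 on GD15, 7.41, 7.52 and 7.64 on GD26 and 9.19, 8.55 and 8.42 on GD50 in Yorkshire. All GD15 arrays were under 100 and all later arrays above it. The rises were at least 2.39-fold in Meishan and at least 1.84-fold in Yorkshire (adjusted p = 1.68e-05 and 0.000155). In Yorkshire it rose again by GD50, by 1.19 ± 0.245 log2 (adjusted p = 0.0126). Without Yorkshire GD50 array 1 (0.96) this second rise was under 2-fold.

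SLC5A1, the sodium-coupled glucose carrier of absorptive epithelia, moved the other way. It read 9.64, 9.78 and 9.59 on GD15, 3.95, 4.54 and 4.43 on GD26 and 3.61, 4.03 and 5.0 on GD50 in Meishan, and 9.48, 9.58 and 9.63 on GD15, 3.2, 2.79 and 4.85 on GD26 and 2.88, 3.17 and 2.79 on GD50 in Yorkshire. All GD15 arrays were above 100 and all 12 later arrays were below it. The fall by GD26 was at least 8.15-fold in Meishan and at least 7.57-fold in Yorkshire. No p is given, since SLC5A1 met the filter through its 6 GD15 arrays alone.

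SLC2A1 (GLUT1), a widely expressed glucose carrier named here after its values were seen, passed 2-fold in no step. Its group means were 13.11 ± 0.226 (SD, n = 3) in M15, 12.38 ± 0.187 in M26 and 11.60 ± 0.0897 in M50, and 13.06 ± 0.154, 12.63 ± 0.0654 and 12.05 ± 0.232 in Y15, Y26 and Y50. The Meishan steps were −0.72 ± 0.157 log2 (adjusted p = 0.00365) and −0.79 ± 0.157 log2 (adjusted p = 0.00800), below the 2-fold limit. The Yorkshire steps were −0.43 ± 0.173 log2 (adjusted p = 0.0515) and −0.58 ± 0.173 log2 (adjusted p = 0.0565).

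SLC2A8, a glucose carrier of intracellular membranes, fell in Meishan, with a change of −1.36 ± 0.228 log2 (adjusted p = 0.000856), from 8.29, 8.36 and 8.44 to 7.21, 7.12 and 6.68. Its Yorkshire change was −0.51 ± 0.312 log2 (adjusted p = 0.173), and the difference between the breeds did not pass the test (0.85 ± 0.406 log2, adjusted p = 0.114). SLC37A4, which carries glucose 6-phosphate into the endoplasmic reticulum, has 2 probe sets that did not move alike. In Meishan the dimmer one fell by 2.72 ± 0.467 log2 (adjusted p = 0.000974) and rose again by 2.11 ± 0.467 log2 (adjusted p = 0.0132), while the brighter one gave −0.28 ± 0.346 and −0.30 ± 0.346 log2. In Yorkshire both fell by GD26, by −1.32 ± 0.203 and −2.0 ± 0.281 log2, and the brighter one was under 2-fold after centring (−0.93). SLC50A1, a carrier of the SWEET family, fell by 1.02 ± 0.197 log2 (adjusted p = 0.00147) in Yorkshire by GD26 and rose by 1.22 ± 0.197 log2 (adjusted p = 0.00388) by GD50. The fall was under 2-fold after centring (−0.62), and without Yorkshire GD15 array 2 (−0.99), Yorkshire GD15 array 3 (−0.99) or Yorkshire GD26 array 3 (−0.87).

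**Figure D3:**
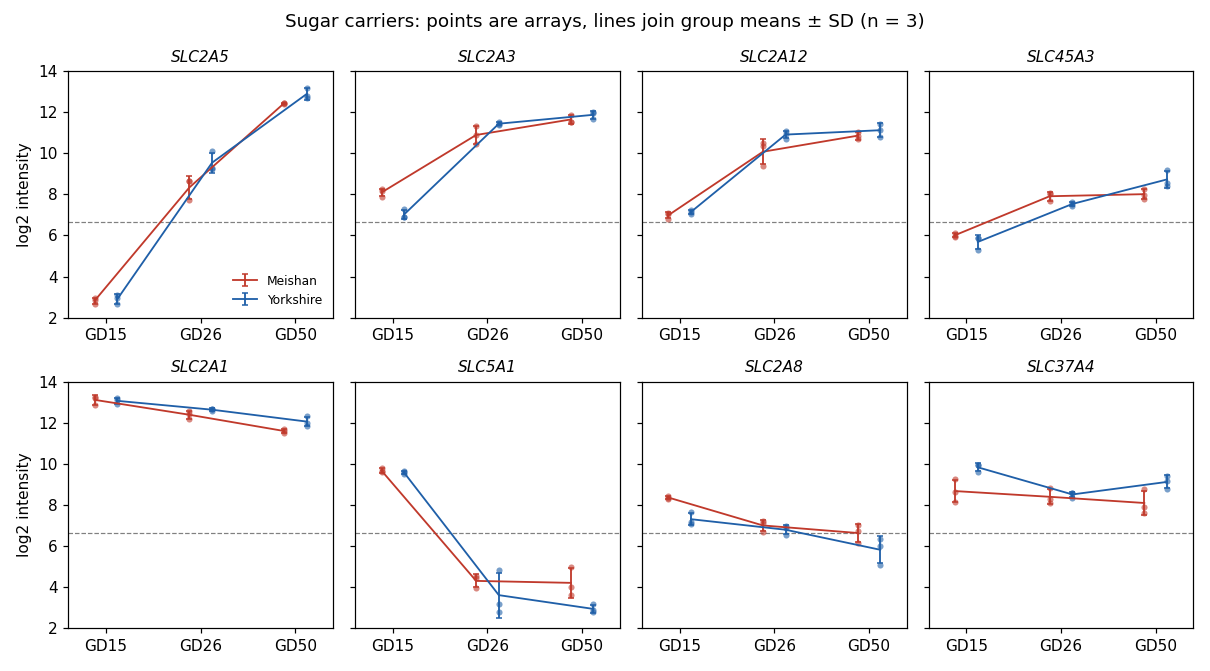
Log2 intensity (vertical) of 8 sugar carriers on GD15, GD26 and GD50 in Meishan (red) and Yorkshire (blue); each point is 1 array, lines join the group means, bars are SD over 3 arrays and the dashed line is intensity 100. SLC2A5 climbs from 2.67 to 3.12 on the GD15 arrays to 12.37 to 13.18 on the GD50 arrays and SLC5A1 drops below the dashed line after GD15.

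Amino acid and peptide carriers had the most risers: 9 of 16 probe sets, of 7 genes, rose by GD26 in each breed. In Meishan 3 fell, in Yorkshire 4, so that 75% and 81.2% were called, against 24% and 45.4% of all probe sets. The median change of the class was 1.93 in Meishan and 1.60 in Yorkshire (1.99 after centring), against −0.06 and −0.47 over all probe sets tested. SLC3A1 encodes the subunit that takes the light chain SLC7A9 to the membrane, and the pair exchanges cystine and dibasic amino acids. SLC3A1 read 6.42, 6.51 and 5.9 on GD15, 10.68, 10.27 and 9.42 on GD26 and 11.05, 10.99 and 10.79 on GD50 in Meishan, and 4.87, 5.32 and 5.73 on GD15, 10.71, 10.23 and 10.52 on GD26 and 11.33, 11.19 and 11.02 on GD50 in Yorkshire. All GD15 arrays were under 100 and all later arrays far above it. The rise by GD26 was at least 11.1-fold in Meishan and at least 14.3-fold in Yorkshire (adjusted p = 6.59e-06 and 1.97e-07). As fitted the Yorkshire rise was larger by 1.33 ± 0.397 log2 (adjusted p = 0.0168), a call that ended without Meishan GD26 array 3 (0.98) or Yorkshire GD15 array 1 (1.12) and with every intensity under 100 set to 100 (0.36).

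SLC7A9, the light chain, went down instead. It read 9.25, 8.95 and 8.98 on GD15, 7.12, 6.79 and 7.3 on GD26 and 2.57, 2.94 and 2.26 on GD50 in Meishan, and 8.2, 8.43 and 8.57 on GD15, 2.94, 2.26 and 2.94 on GD26 and 2.62, 3.12 and 2.26 on GD50 in Yorkshire. On GD26 the Meishan arrays were still above 100 while the Yorkshire arrays lay between 2.26 and 2.94, and by GD50 both breeds were at such values. In Meishan it fell by 1.99 ± 0.202 log2 (adjusted p = 3.75e-05) by GD26 and then at least 1.34-fold by GD50 (adjusted p of the fitted change = 2.01e-06). With every intensity under 100 set to 100 this second Meishan step was −0.43 and no longer called (adjusted p = 0.0760). In Yorkshire it fell at least 3.38-fold by GD26 (adjusted p = 2.31e-07). On GD26 it was at least 1.34-fold higher in Meishan (adjusted p of the fitted difference = 2.26e-09), and with the same floor at 100 this was −0.43 (adjusted p = 0.0161), under 2-fold. The Yorkshire minus Meishan difference in change, as fitted, was −3.69 ± 0.347 log2 by GD26 (adjusted p = 2.2e-06) and 4.43 ± 0.347 log2 from GD26 to GD50 (adjusted p = 2.81e-06). With every intensity under 100 set to 100 the first of these was 0.24 with an adjusted p of 0.351, and the second 0.43 with an adjusted p of 0.211.

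SLC7A4, a relative of the cationic amino acid carriers, rose in both breeds. It read 4.74, 5.51 and 4.05 on GD15, 10.18, 10.05 and 9.54 on GD26 and 10.48, 10.76 and 10.55 on GD50 in Meishan, and 4.96, 5.67 and 5.89 on GD15, 10.75, 10.52 and 10.64 on GD26 and 11.58, 11.17 and 11.33 on GD50 in Yorkshire. GD15 was under 100 on all arrays, and no later value came near it. The rise was at least 9.70-fold in Meishan and at least 15.9-fold in Yorkshire (adjusted p = 1.71e-06 and 2.5e-07). The arginine and lysine carrier SLC7A1 differed between the breeds: it read 8.54, 8.54 and 8.99 on GD15, 8.6, 8.8 and 8.68 on GD26 and 8.57, 8.51 and 8.48 on GD50 in Meishan, and 8.62, 8.73 and 8.65 on GD15, 7.73, 7.08 and 7.2 on GD26 and 7.52, 6.53 and 7.25 on GD50 in Yorkshire. The Meishan values stayed within 8.48 to 8.99 on all 9 arrays and all 6 later Yorkshire arrays were under them. It fell in Yorkshire, with a change of −1.33 ± 0.269 log2 (adjusted p = 0.00196) against 0.00 ± 0.150 log2 in Meishan, a difference of −1.33 ± 0.314 log2 (adjusted p = 0.00462). After centring the Yorkshire fall was −0.94 and the difference −0.98, both just under 2-fold, and with Y26 from array 1 alone both calls ended too (−0.94 and −0.94).

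The glutamine carrier SLC1A5 (ASCT2) rose in steps. It read 6.98, 7.17 and 6.75 on GD15, 9.19, 9.01 and 8.85 on GD26 and 10.14, 10.24 and 10.28 on GD50 in Meishan, and 7.2, 7.25 and 6.88 on GD15, 9.46, 9.8 and 8.86 on GD26 and 10.39, 9.97 and 10.32 on GD50 in Yorkshire. In each breed the 3 days did not overlap. It rose by 2.05 ± 0.149 log2 (adjusted p = 4.79e-06) and then 1.2 ± 0.149 log2 (adjusted p = 0.000663) in Meishan, and by 2.26 ± 0.251 log2 (adjusted p = 4.98e-05) in Yorkshire, where the step to GD50 of 0.85 ± 0.251 log2 was not called (adjusted p = 0.0530). SLC38A1, a sodium-coupled carrier of glutamine and other neutral amino acids, fell, with changes of −2.04 ± 0.127 log2 (adjusted p = 1.65e-06) in Meishan and −2.35 ± 0.213 log2 (adjusted p = 1.42e-05) in Yorkshire. Its GD15 values were 12.10, 12.34 and 12.36 in Meishan and 12.19, 12.36 and 11.89 in Yorkshire, and all 12 later arrays lay between 9.69 and 10.55. The second SLC38A1 probe set fell too, with changes of −1.78 ± 0.153 and −1.67 ± 0.278 log2. SLC38A9, an arginine carrier of the lysosome membrane named after its values were seen, rose by 1.81 ± 0.139 and 1.73 ± 0.199 log2.

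The glutamate carriers SLC1A1 and SLC1A3 followed unlike courses. SLC1A1 read 10.08, 10.11 and 10.24 on GD15, 10.17, 10.26 and 10.08 on GD26 and 8.99, 9.08 and 9.07 on GD50 in Meishan, and 7.95, 7.93 and 8.18 on GD15, 8.5, 9.07 and 8.56 on GD26 and 8.71, 8.59 and 8.55 on GD50 in Yorkshire. All 6 Meishan arrays of GD15 and GD26 were above every Yorkshire array. It was higher in Meishan by 2.12 log2 on GD15 (Yorkshire minus Meishan −2.12 ± 0.150, adjusted p = 1.17e-07) and by 1.46 log2 on GD26 (−1.46 ± 0.150, adjusted p = 1.95e-06), and fell by 1.12 ± 0.119 log2 (adjusted p = 0.000303) in Meishan by GD50. SLC1A3 was at 2.18 to 2.29 on all GD15 arrays and read 8.61, 6.91 and 6.52 in M26 and 8.53, 7.05 and 7.4 in Y26. Its rise was at least 1.63-fold in Meishan and at least 2.02-fold in Yorkshire (adjusted p = 1.84e-05 and 0.000316), with a wide spread between the pools. With intensities under 100 set to 100 the Meishan rise was 0.74 and no longer called.

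The peptide carriers SLC15A1 (PEPT1) and SLC15A2 (PEPT2), which take up di- and tripeptides, both passed the test by GD26. SLC15A1 read 5.89, 5.1 and 4.87 on GD15, 7.65, 7.56 and 7.41 on GD26 and 7.75, 7.61 and 7.55 on GD50 in Meishan, and 3.91, 4.36 and 4.41 on GD15, 6.01, 6.54 and 6.23 on GD26 and 7.8, 7.69 and 7.23 on GD50 in Yorkshire. In Meishan all GD26 arrays were above 100, and in Yorkshire none was until GD50, so its Yorkshire step from GD15 to GD26 has no fold. It rose at least 1.86-fold in Meishan by GD26 (adjusted p = 4.33e-05) and at least 1.91-fold in Yorkshire from GD26 to GD50 (adjusted p = 0.00565). On GD26 it was at least 1.86-fold higher in Meishan (adjusted p = 0.000423), a fitted difference of −1.28 ± 0.238 log2 that was −0.93 after centring. All 3 probe sets of SLC15A2 rose in both breeds by GD26. The brightest one read 7.2, 7.65 and 8.39 on GD15, 10.39, 10.24 and 9.3 on GD26 and 9.93, 10.22 and 9.66 on GD50 in Meishan, and 8.49, 8.68 and 7.73 on GD15, 10.48, 9.63 and 9.19 on GD26 and 8.87, 8.01 and 9.51 on GD50 in Yorkshire. Its rise was 2.23 ± 0.347 log2 (adjusted p = 0.000548) in Meishan and 1.47 ± 0.441 log2 (adjusted p = 0.0151) in Yorkshire, and the latter was no longer called without Yorkshire GD15 array 3 (1.19) or Yorkshire GD26 array 1 (1.12). The other probe sets rose by 2.64 ± 0.387 and 2.33 ± 0.280 log2 in Meishan and by 2.85 ± 0.497 and 1.9 ± 0.422 log2 in Yorkshire.

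**Figure D4:**
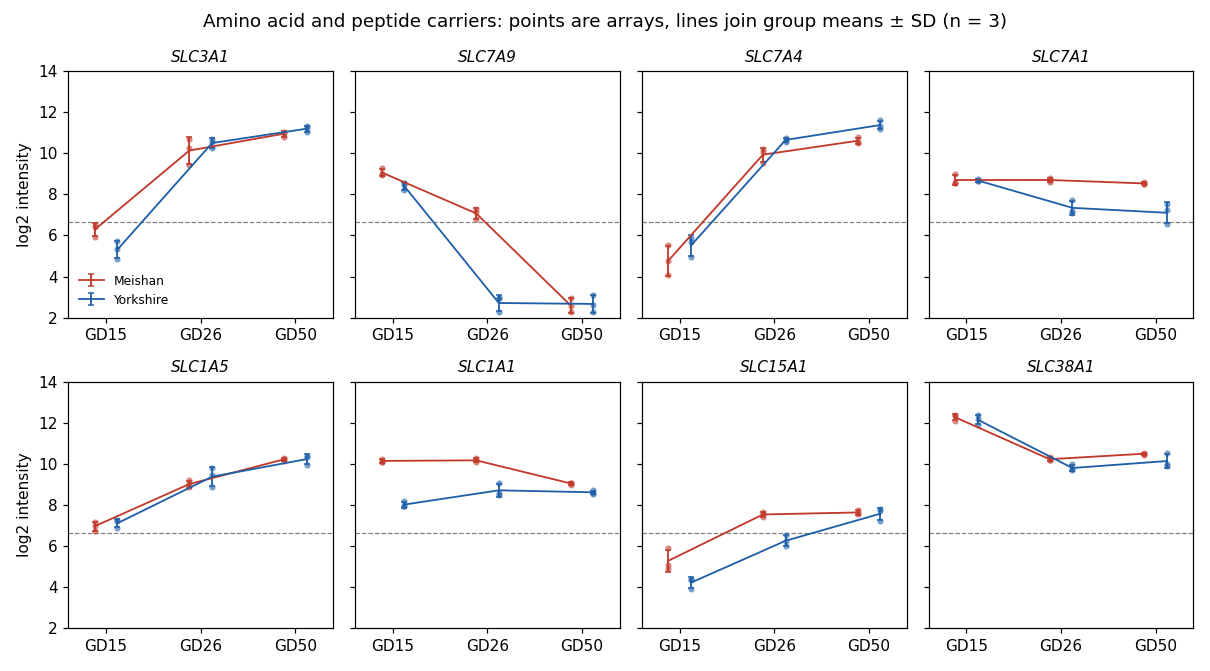
Log2 intensity (vertical) of 8 amino acid and peptide carriers on GD15, GD26 and GD50 in Meishan (red) and Yorkshire (blue); each point is 1 array, lines join group means, bars are SD over 3 arrays and the dashed line is intensity 100. SLC3A1 and SLC7A4 rise in both breeds, SLC7A9 is at 7.07 in M26 but 2.71 in Y26, and SLC7A1 lies at 6.53 to 7.73 on the later Yorkshire arrays.

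Of 13 probe sets of metal carriers, 2 rose and 4 fell in Meishan by GD26 and 2 rose and 5 fell in Yorkshire. That is 46.2% called in Meishan and 53.8% in Yorkshire, against 24% and 45.4% of all probe sets. From GD26 to GD50, 1 fell in Meishan and 3 in Yorkshire, and each of these had already fallen by GD26. The median change by GD26 was −0.25 in Meishan and −0.40 in Yorkshire, or −0.0027 after centring. The zinc importer SLC39A2 differed between the breeds on GD15. It read 11.51, 11.62 and 11.49 on GD15, 10.48, 10.58 and 9.89 on GD26 and 9.65, 10.14 and 9.72 on GD50 in Meishan, and 13.21, 13.32 and 13.25 on GD15, 11.02, 10.75 and 10.95 on GD26 and 8.98, 8.72 and 8.66 on GD50 in Yorkshire. On GD15 the Yorkshire arrays were all higher than the Meishan arrays, and on GD50 they were all lower. On GD15 it was 1.72 ± 0.181 log2 (adjusted p = 1.19e-05) higher in Yorkshire. It fell in Yorkshire, with a change of −2.35 ± 0.161 log2 (adjusted p = 2.33e-06) and again −2.12 ± 0.161 log2 (adjusted p = 6.71e-05), and in Meishan −1.22 ± 0.203 log2 (adjusted p = 0.000794) and then −0.48 ± 0.203 log2, which was not called (adjusted p = 0.136). The difference between the steps to GD50, Yorkshire minus Meishan, was −1.64 ± 0.257 log2 (adjusted p = 0.00201).

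The same gene's steps to GD26 differed by −1.13 ± 0.257 log2 (adjusted p = 0.00364), but this was −0.78 after centring and just under 2-fold without Meishan GD26 array 2 (−1.0). On GD50 it was higher in Meishan (Yorkshire minus Meishan −1.05 ± 0.181 log2, adjusted p = 0.000212), which was −0.64 after centring and under 2-fold without Meishan GD50 array 2 (−0.90) or Yorkshire GD50 array 3 (−0.99). SLC30A3, which loads zinc into vesicles, read 8.59, 8.66 and 8.51 on GD15, 7.97, 7.18 and 6.1 on GD26 and 7.98, 6.44 and 6.96 on GD50 in Meishan, and 8.09, 8.06 and 8.19 on GD15, 6.47, 6.66 and 5.46 on GD26 and 4.83, 3.19 and 3.87 on GD50 in Yorkshire. The Yorkshire GD50 arrays were all under 100 and under every other array, while the Meishan pools of GD26 and GD50 scattered widely. In Yorkshire it fell, with a change of −1.92 ± 0.417 log2 (adjusted p = 0.00291) by GD26 and of −2.23 ± 0.417 log2 (adjusted p = 0.00804) by GD50, where the second step was −0.0049 with intensities under 100 set to 100. In Meishan the fall by GD26 was −1.5 ± 0.467 log2 (adjusted p = 0.0224) and was lost without Meishan GD15 array 2 (−1.47) or Meishan GD26 array 3 (−1.01). On GD50 it was at least 1.40-fold higher in Meishan (adjusted p = 7.33e-05), and that difference was −0.55 and no longer called with intensities under 100 set to 100. The zinc carriers SLC39A1 and SLC39A7, named after their values were seen, were called in no step between days.

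SLC11A2 (DMT1), which carries iron and other divalent metals out of endosomes and across the apical membrane, was high in Y15 alone. It read 6.44, 6.71 and 6.53 on GD15, 5.73, 6.03 and 5.8 on GD26 and 5.57, 5.69 and 5.94 on GD50 in Meishan, and 9.43, 9.24 and 9.44 on GD15, 6.09, 7.36 and 7.03 on GD26 and 5.61, 5.14 and 6.12 on GD50 in Yorkshire. The 3 Y15 arrays were above all others, and of the other 15 arrays 3 exceeded intensity 100. It exceeded 100 on exactly 6 arrays, 1 of M15, 3 of Y15 and 2 of Y26, and met the filter only with all of them. Its levels in Y15 and Y26 were thus part of the condition for its being tested, and no p is given. On GD15 it was 2.81 ± 0.274 log2 higher in Yorkshire. It fell in Yorkshire, with a change of −2.54 ± 0.340 log2 against −0.71 ± 0.150 log2 in Meishan, which did not reach 2-fold. The difference between the breeds was −1.84 ± 0.387 log2. A further fall in Yorkshire by GD50, of at least 1.13-fold, was no longer called after centring (−1.13). The call was also lost without Yorkshire GD26 array 2 (−0.93), Yorkshire GD26 array 3 (−1.1), Yorkshire GD50 array 1 (−1.19) or Yorkshire GD50 array 2 (−0.96).

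SLC31A1 (CTR1), the copper importer, read 12.54, 11.96 and 12.16 on GD15, 11.05, 11.06 and 11.32 on GD26 and 9.57, 9.5 and 9.78 on GD50 in Meishan, and 11.998, 12.37 and 12.68 on GD15, 11.06, 12.31 and 12.49 on GD26 and 11.38, 11.19 and 11.55 on GD50 in Yorkshire. The Meishan days did not overlap, whereas the 3 Y26 pools ran from 11.06 to 12.49. It fell in Meishan, with a change of −1.08 ± 0.173 log2 (adjusted p = 0.000649) and −1.53 ± 0.173 log2 (adjusted p = 0.000399), the first under 2-fold without Meishan GD15 array 1 (−0.92). In Yorkshire the steps were −0.40 ± 0.354 and −0.58 ± 0.354 log2 and not called, and on GD50 it was 1.76 ± 0.292 log2 (adjusted p = 0.000157) higher in Yorkshire. The breed differences of the 2 steps themselves were 0.68 ± 0.414 and 0.95 ± 0.414 log2 and not called (adjusted p = 0.207 and 0.213). Its relative SLC31A2, known from endosomes and lysosomes, read 9.36, 9.26 and 8.59 on GD15, 6.49, 6.84 and 6.43 on GD26 and 7.03, 7.28 and 7.44 on GD50 in Meishan, and 9.13, 9.03 and 9.21 on GD15, 5.65, 5.86 and 5.71 on GD26 and 6.28, 5.54 and 6.22 on GD50 in Yorkshire. All GD15 arrays were above all later ones. It fell by 2.49 ± 0.221 log2 (adjusted p = 1.63e-05) in Meishan. In Yorkshire it fell at least 5.58-fold (adjusted p = 1.37e-06).

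SLC25A37 (mitoferrin 1), which brings iron into mitochondria, was the metal carrier that rose. Its brighter probe set read 6.98, 6.84 and 6.21 on GD15, 8.95, 8.96 and 8.64 on GD26 and 8.37, 8.48 and 8.03 on GD50 in Meishan, and 5.85, 5.68 and 5.53 on GD15, 9.72, 10.07 and 9.8 on GD26 and 9.43, 9.15 and 8.82 on GD50 in Yorkshire. In both breeds GD15 was lowest and GD26 highest, with no overlap between GD15 and later days. It rose by 2.18 ± 0.217 log2 (adjusted p = 3.44e-05) in Meishan. In Yorkshire it rose at least 9.30-fold (adjusted p = 2.52e-07), and the fitted Yorkshire rise was larger by 2.0 ± 0.300 log2 (adjusted p = 0.000178). The second probe set rose at least 4.15-fold in Meishan and 6.28-fold in Yorkshire. Red cell markers did not move alike. Of the 5 on the array 1 was never above 100. The 1 that passed the filter, HBB, fell by GD26 in both breeds. It averaged 8.46 in M15 and 7.36 in M26, and 8.04 in Y15 and 6.95 in Y26. The summed intensity of the 5 was 375 to 6652 in M26, 14787 to 17578 in Y26 and 173 to 569 in the other groups. The embryonic globin HBE1 averaged 10.08 in M26, 13.94 in Y26 and 2.50 to 2.87 in the other groups. The part of red cells in the rise of SLC25A37 was not tested.

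**Figure D5:**
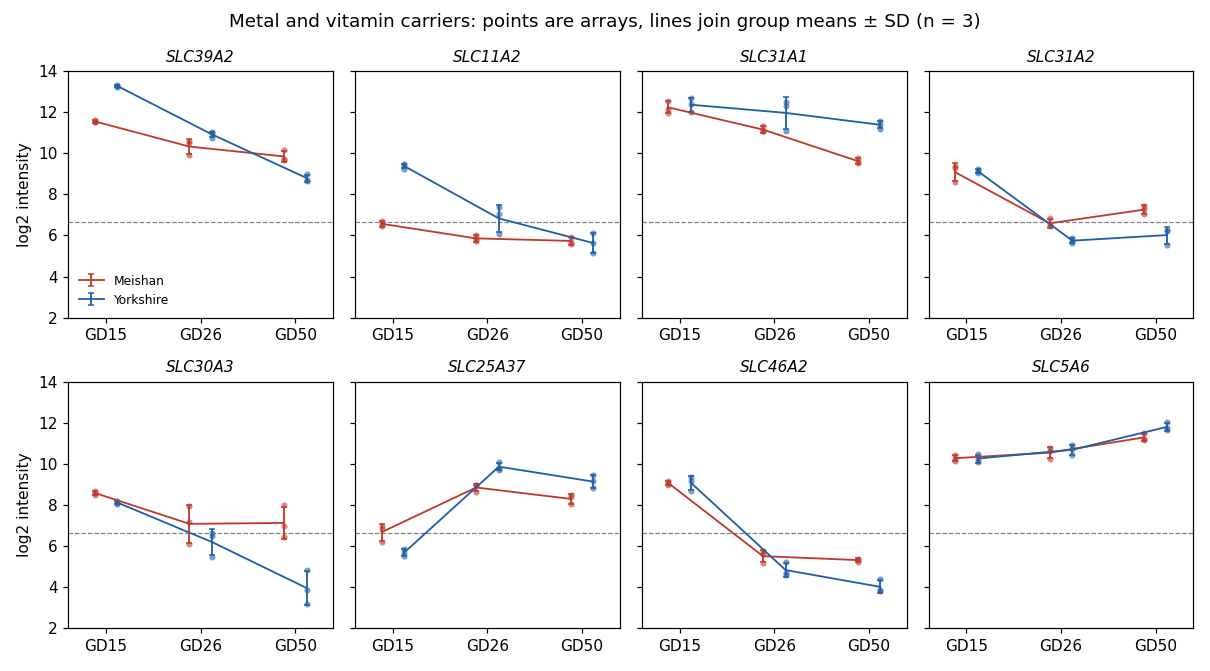
Log2 intensity (vertical) of 6 metal carriers and the carriers SLC46A2 and SLC5A6 on GD15, GD26 and GD50 in Meishan (red) and Yorkshire (blue); each point is 1 array, lines join group means, bars are SD over 3 arrays and the dashed line is intensity 100. SLC39A2 starts at 13.26 in Y15 against 11.54 in M15 and ends lower in Yorkshire, SLC11A2 is raised in Y15, and SLC46A2 drops below the dashed line after GD15.

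Of the 6 probe sets of vitamin and choline carriers, none rose and 2 fell in Meishan by GD26, and 1 rose and 1 fell in Yorkshire. In each breed 33.3% were called, against 24% of all probe sets in Meishan and 45.4% in Yorkshire. From GD26 to GD50 the only call was 1 rise in Yorkshire. SLC46A2, a relative of the proton-coupled folate carrier known from the thymus, had the large fall. It read 9.06, 8.97 and 9.16 on GD15, 5.17, 5.63 and 5.75 on GD26 and 5.23, 5.34 and 5.39 on GD50 in Meishan, and 9.17, 9.37 and 8.69 on GD15, 4.61, 4.68 and 5.22 on GD26 and 3.8, 4.38 and 3.88 on GD50 in Yorkshire. Every GD15 array was above 100 and every later array below it. By GD26 it fell at least 5.36-fold in Meishan and at least 5.40-fold in Yorkshire. It too met the filter through its 6 GD15 arrays alone.

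SLC5A6, the sodium-dependent carrier of biotin and pantothenate, was highest on GD50 in both breeds. It read 10.42, 10.25 and 10.14 on GD15, 10.24, 10.78 and 10.61 on GD26 and 11.18, 11.18 and 11.50 on GD50 in Meishan, and 10.07, 10.23 and 10.46 on GD15, 10.42, 10.71 and 10.92 on GD26 and 12.03, 11.73 and 11.63 on GD50 in Yorkshire. It rose in Yorkshire from GD26 to GD50 by 1.11 ± 0.197 log2 (adjusted p = 0.00630), under 2-fold without Yorkshire GD26 array 1 (0.98) or Yorkshire GD50 array 1 (0.99). The Meishan step of 0.74 ± 0.172 log2 (adjusted p = 0.0162) did not reach 2-fold, and the breed difference was 0.37 ± 0.259 log2 (adjusted p = 0.461). SLC44A4, a choline-like carrier that also takes up thiamine pyrophosphate, rose in Yorkshire by GD26 by 1.14 ± 0.225 log2 (adjusted p = 0.00172), just under 2-fold without Yorkshire GD26 array 2 (0.96), against 0.49 ± 0.131 log2 in Meishan. The breed difference was 0.65 ± 0.257 log2 (adjusted p = 0.0608). The 2 tested probe sets of the choline-like carrier SLC44A2, named after its values were seen, were not called alike in Meishan. The dimmer one fell in Meishan by GD26 (−1.17 ± 0.164 log2, adjusted p = 0.000289) and the brighter one, at −0.87 ± 0.152 log2, was under 2-fold. In Yorkshire neither was called (0.12 ± 0.361 and −0.46 ± 0.221 log2). One more probe set, above 100 on 4 of the Y26 and Y50 arrays and on none of the other 12, did not pass the filter.

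Of the nucleoside carriers, SLC28A3 fell and SLC29A1 rose. The concentrative carrier SLC28A3 read 12.35, 12.09 and 12.55 on GD15, 8.15, 6.92 and 7.42 on GD26 and 5.77, 5.33 and 5.82 on GD50 in Meishan, and 12.51, 12.57 and 12.67 on GD15, 6.15, 6.73 and 5.9 on GD26 and 3.72, 5.16 and 5.73 on GD50 in Yorkshire. GD15 stood above all later arrays in both breeds. It fell, with changes of −4.83 ± 0.285 log2 (adjusted p = 1.11e-06) in Meishan and −6.32 ± 0.444 log2 (adjusted p = 2.83e-06) in Yorkshire by GD26, where the Y26 arrays lay near 100. By GD50 it fell at least 1.80-fold more in Meishan (adjusted p of the fitted change = 0.00216). With intensities under 100 set to 100 this last step was −0.85 and no longer called (adjusted p = 0.0777). The equilibrative carrier SLC29A1 read 2.73, 2.34 and 2.5 on GD15, 6.17, 6.85 and 6.99 on GD26 and 6.03, 5.9 and 6.28 on GD50 in Meishan, and 2.24, 2.24 and 2.75 on GD15, 5.84, 6.66 and 6.76 on GD26 and 7.68, 7.48 and 8.46 on GD50 in Yorkshire. It was 2.24 to 2.75 on all GD15 arrays and close to 100 on GD26, so the rise by GD26 has only a bound near 1 in Meishan (at least 1.02-fold). In Yorkshire it rose further by GD50, by 1.45 ± 0.324 log2, and on GD50 it was at least 2.35-fold higher than in Meishan. SLC29A1 met the filter only with its M26, Y26 and Y50 arrays all counted. Its level in these groups was thus part of the condition for its being tested, and no p is given.

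The anion exchanger SLC26A6 read 2.44, 2.38 and 2.27 on GD15, 7.01, 6.1 and 5.46 on GD26 and 9.14, 9.39 and 8.69 on GD50 in Meishan, and 2.44, 2.44 and 2.44 on GD15, 8.03, 7.06 and 7.71 on GD26 and 8.52, 6.86 and 7.91 on GD50 in Yorkshire. It was 2.27 to 2.44 on GD15 and above 100 on all GD50 arrays. In Meishan 1 of the 3 GD26 arrays was above 100 and it rose by 2.88 ± 0.336 log2 (adjusted p = 0.000458) by GD50. In Yorkshire all 3 GD26 arrays were above 100, a rise of at least 1.94-fold (adjusted p of the fitted change = 4.6e-06). With intensities under 100 set to 100 this rise was 0.96 and no longer called (adjusted p = 0.0700). The breed difference of the step to GD50 was −2.72 ± 0.552 log2 (adjusted p = 0.0104). SLC27A6, a fatty acid transport protein, rose at least 5.39-fold in Meishan and at least 3.96-fold in Yorkshire by GD26. It was under 100 on all GD15 arrays and read 9.66, 9.22 and 8.35 in M26 and 9.5, 8.21 and 8.17 in Y26.

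Of 13 probe sets of mitochondrial carriers 3 rose and none fell in Meishan by GD26, and 5 rose and 3 fell in Yorkshire. That is 23.1% called in Meishan and 61.5% in Yorkshire, against 24% and 45.4% of all probe sets. SLC25A20, which brings acylcarnitines into mitochondria for fatty acid oxidation, rose at least 7.30-fold in Meishan and at least 6.07-fold in Yorkshire (adjusted p = 1.16e-05 and 6.11e-06). Its GD15 values were 6.58, 6.53 and 6.36 in Meishan and 6.21, 6.15 and 6.27 in Yorkshire, and its GD26 values 10.02, 9.58 and 8.93 and 9.7, 9.32 and 8.73. The aspartate and glutamate carrier SLC25A12 read 8.32, 8.28 and 8.02 on GD15, 7.93, 7.82 and 7.64 on GD26 and 7.63, 7.63 and 6.75 on GD50 in Meishan, and 8.62, 8.59 and 8.76 on GD15, 6.85, 6.26 and 6.51 on GD26 and 6.38, 6.19 and 6.05 on GD50 in Yorkshire. It was lower in every later Yorkshire array than in all Meishan arrays except that M50 array 3 (6.75) lay below Y26 array 1 (6.85). After centring the breed differences on GD26 and GD50 were under 2-fold (−0.90 and −0.72). With Y26 from array 1 alone the GD26 difference was −0.94, and the GD50 difference was −0.98 without M50 array 1 or array 2. It fell in Yorkshire, with a change of −2.11 ± 0.191 log2 (adjusted p = 1.39e-05), with a difference to Meishan of −1.71 ± 0.307 log2 (adjusted p = 0.000745). The citrate carrier SLC25A1 rose in Yorkshire by 1.47 ± 0.170 log2 (adjusted p = 6.5e-05) and changed by 0.22 ± 0.210 log2 in Meishan, a difference of 1.25 ± 0.271 log2 (adjusted p = 0.00264).

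SLC25A39, which takes glutathione into mitochondria, read 5.42, 5.81 and 5.77 on GD15, 6.35, 6.29 and 6.48 on GD26 and 6.53, 6.45 and 6.29 on GD50 in Meishan, and 4.94, 5.46 and 5.69 on GD15, 9.1, 9.46 and 8.93 on GD26 and 8.25, 7.94 and 8.6 on GD50 in Yorkshire. It passed 100 on the 6 Y26 and Y50 arrays and on no other, so it met the filter only through the groups in which it was high, a difference was a condition of its being tested, and no p is given. Y26 was at least 5.74-fold above Y15, and on GD26 and GD50 it was at least 5.74-fold and 3.08-fold higher in Yorkshire. These are the arrays that stand apart by their spiked controls, and they also include Y26 with its red cell marker sums. The part of either was not tested.

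Of 10 probe sets of nucleotide sugar carriers, which supply the Golgi apparatus and endoplasmic reticulum with building blocks of glycans, 3 rose and none fell in Meishan by GD26, and 2 rose and 1 fell in Yorkshire. In each breed 30% were called, against 24% of all probe sets in Meishan and 45.4% in Yorkshire. The GDP-fucose carrier SLC35C1 rose by 1.73 ± 0.190 and 1.34 ± 0.255 log2, and the UDP-N-acetylglucosamine carrier SLC35A3 by 1.52 ± 0.282 and 1.66 ± 0.310 log2, in Meishan and Yorkshire. SLC35A3 read 7.26, 7.17 and 8.2 in M15 and 9.22, 8.84 and 9.14 in M26, and 7.9, 7.65 and 7.53 in Y15 and 10.12, 8.79 and 9.14 in Y26, without overlap.

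Between the breeds on the same day, 3 SLC probe sets were higher in Yorkshire and 4 in Meishan on GD15, where 2.5% and 2.8% of all probe sets were, 5.3% together. Of these, SLC11A2, SLC39A2 and SLC1A1 are described above. The calls of SLC2A3, SLC2A8, SLC15A1 and SLC37A4 were each lost when 1 array was left out. For SLC2A3 (−1.06 ± 0.200 log2) this was so without Meishan GD15 array 2 (−0.99) or Yorkshire GD15 array 1 (−0.99). For SLC2A8 (−1.05 ± 0.287 log2) it was so without Meishan GD15 array 1 (−1.09), Meishan GD15 array 2 (−1.06), Meishan GD15 array 3 (−1.01), Yorkshire GD15 array 1 (−0.99) or Yorkshire GD15 array 2 (−0.95). For SLC37A4 (1.16 ± 0.300 log2) it was so without Meishan GD15 array 1 (1.14), Meishan GD15 array 3 (0.89), Yorkshire GD15 array 1 (1.1) or Yorkshire GD15 array 2 (1.1). SLC15A1 was under 100 on all GD15 arrays, and its call ended without Meishan GD15 array 1 (−0.76) or Yorkshire GD15 array 1 (−0.90).

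On GD26, 7 SLC probe sets were higher in Yorkshire and 10 in Meishan, against 6.14% and 20% of all probe sets (26.1% together), and after centring 15 were higher in Yorkshire and 4 in Meishan. On GD50, 7 were higher in Yorkshire and 13 in Meishan, against 6.3% and 23.3% (29.6% together), and after centring 17 and 3. With quantile normalization the counts were 11 and 4 on GD26 and 12 and 5 on GD50. The balance between the breeds on these days therefore turned with the scaling of the arrays. In the test of the difference in change from GD15 to GD26, 9 SLC probe sets had the higher and 9 the lower change in Yorkshire, against 6.78% and 18.2% of all probe sets (25% together), and 15 and 5 after centring. In the step from GD26 to GD50, 3 had the higher and 2 the lower change in Yorkshire, against 1.74% and 2.01% (3.74% together).

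On GD50 the probe sets higher in Yorkshire included that of SLC31A1, described above, and this call held after centring. Those of SLC29A1 and SLC25A39 were among them too, but both met the filter only with groups in which they were high. The step of SLC1A1 from GD26 to GD50 was higher in Yorkshire by 1.03 ± 0.212 log2 (adjusted p = 0.0114), a call that ended without Meishan GD26 array 2 (0.98), Meishan GD50 array 1 (1.0), Yorkshire GD26 array 1 (0.92), Yorkshire GD26 array 3 (0.95) or Yorkshire GD50 array 1 (0.98). SLC9A3R2, a scaffold protein that binds ion exchangers, rose in Yorkshire by GD26 at least 2.05-fold (adjusted p = 0.00629), and with Y26 from array 1 alone this was 0.58 log2 and not called. The ADP/ATP carrier SLC25A4 fell in Yorkshire, with a change of −1.54 ± 0.369 log2 (adjusted p = 0.00489), and with Y26 from array 1 alone this was −0.72 and not called.

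The 8 probe sets above 100 on 3 to 5 arrays were not among the 9320 tested. They are those of SLC12A4, SLC22A5, SLC25A30 and SLC3A2 and further probe sets of SLC25A3, SLC31A2, SLC3A1 and SLC44A2. Of these, SLC3A2, which encodes the subunit shared by several amino acid exchangers, SLC12A4, and the probe sets of SLC25A3, SLC3A1 and SLC44A2 exceeded 100 on Y26 and Y50 arrays alone.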

How the data were processed

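The deposited log2 values of the 18 arrays were used as the authors made them, with the affy and GCRMA packages in R; the labels name RMA and GCRMA without versions. Array controls and probe sets not above intensity 100 in at least 6 arrays were removed, which left 9320. limma 3.58.1 in R 4.3.3 was fitted once per breed for the 4 comparisons between days and once over the 6 groups for the breed comparisons, with Benjamini-Hochberg adjustment over all 9320 probe sets. A call needed an adjusted p of at most 0.05 and a 2-fold change. Where a whole group was under 100, the fold was taken against 100 and given as a lower bound, while its p is that of the fitted change. The members, carrier classes and marker lists were chosen with earlier results of these data known. The genes named were, in each carrier class and comparison, up to 3 with the largest rise and 3 with the largest fall among those called, each by its brightest probe set, with SLC2A5, SLC39A2 and SLC46A2; others were named after their values were seen. Symbols came from the platform annotation, and 174 of 176 equalled those of RefSeq. The fit was tested on simulated data. Alternatives were other filters, centring, quantile normalization, a floor at 100, other adjustments, a replicate block and leaving out each array. The main fit has no block, as samples with the same replicate number did not in general deviate together (12 of 45 correlations over 0.1); those of M26 and M50 did (0.176, 0.13 and 0.328), and there a block left the same 8 SLC calls. The number of arrays limits the precision. Figures were drawn with matplotlib 3.10.9.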

Additional observations from a re-analysis of the deposited data

Results flagged for a closer look

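The following carriers were picked out because their change between days differed between the breeds in the fit over the 6 groups (limma, adjusted p at most 0.05 over 9320 probe sets and at least 2-fold). Each value is the log2 change in Yorkshire less that in Meishan. From GD15 to GD26 the difference was above 0 for SLC25A39 (3.09), SLC25A37 (2.0), SLC9A3R2 (1.89), SLC2A3 (1.61), SLC3A1 (1.33), SLC25A1 (1.25) and SLC2A5 (1.13). In the same step it was below 0 for SLC7A9 (−3.69), SLC11A2 (−1.84), SLC25A12 (−1.71), SLC25A4 (−1.44), SLC7A1 (−1.33), SLC39A2 (−1.13) and SLC35F6 (−1.09). From GD26 to GD50 it was above 0 for SLC7A9 (4.43), SLC29A1 (2.06) and SLC1A1 (1.03), and below 0 for SLC26A6 (−2.72) and SLC39A2 (−1.64).

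After centring, the differences of SLC7A1 (−0.98), SLC39A2 from GD15 to GD26 (−0.78) and SLC35F6 (−0.73) were under 2-fold. The values of SLC7A9, SLC2A5, SLC3A1, SLC25A37, SLC25A39, SLC9A3R2, SLC11A2 and SLC29A1 rest in part on groups whose arrays were all under intensity 100, so their sizes are fitted values. SLC25A39 met the intensity filter only through Y26 and Y50, the groups in which it was high, so its difference was a condition of its being tested. SLC11A2 met it only with its M15, Y15 and Y26 arrays above 100 all counted, and SLC29A1 only with those of M26, Y26 and Y50. For these 2 as well the level in groups that enter the difference was part of that condition. In the Y26 arrays, which enter every one of these differences, the spiked controls were brighter than in the Meishan arrays, and their part was not tested.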

How the results depend on the processing

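Of 144 calls of named genes, 110 were kept whichever array was left out and 34 were lost without at least 1 array. Centring ended 23 of them and quantile normalization 20. Setting intensities under 100 to 100 ended 30 and turned 1, the breed difference of SLC7A9 by GD26, to 0.24 (adjusted p = 0.351 in limma); the construction of that floor, which removes differences below 100, is the only change. With no intensity filter, 32 SLC probe sets were called between the breeds on GD26 and 37 on GD50, against 17 and 20. With intensity above 200, 6 were called in Yorkshire from GD26 to GD50 and 4 between the breeds on GD15, against 11 and 7. Quantile normalization gave 8 breed differences from GD26 to GD50 against 5, and the floor at 100 gave 10 and 12 breed calls on GD26 and GD50. Without the 2-fold limit the counts were 62 and 14 for the Meishan steps, and 12, 37 and 43 for the breed comparisons on GD15, GD26 and GD50. With Bonferroni adjustment they were 25 and 3 in Meishan, 20 and 2 in Yorkshire, 3, 4 and 1 between the breeds, and 2 and 1 for the breed differences. With Y26 from array 1 alone, chosen after seeing the data, the spread of that array was assumed to be that of the other groups. The GD26 breed differences of SLC2A4RG and SLC28A3 were then −1.29 and −1.34 log2. After centring with all arrays they were −0.75 and −0.88, both under 2-fold. The cause of these moves was not tested. Leaving out 1 array gave 38 to 40 and 8 to 10 calls in Meishan, 46 to 47 and 6 to 12 in Yorkshire (6 without Y50 array 1), 4 to 8 (4 without M15 array 1 or Y15 array 1), 15 to 19 and 15 to 22 between the breeds, and 15 to 19 and 4 to 9 for the breed differences (9 without Y50 array 3). Same-numbered samples correlated by −0.56 to 0.33, and by over 0.1 in all 3 pairs only between M26 and M50. A replicate block gave 40, 8, 48 and 10 calls between days, 7, 17 and 20 between the breeds and 19 and 6 breed differences. Of the calls of named genes the block ended that of SLC11A2 in Yorkshire from GD26 to GD50. The number of arrays, 3 per group, and values under intensity 100 limit what could be measured.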
